A study of Homo sapiens with 7 samples.

Results

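The DMSO-bound Rb sites described here are 466 regions, of 6644 in all (7.01%), at which Rb was called on chromatin in both DMSO libraries as well as in both palbociclib libraries of parental ZR-75-1 cells. ZR-75-1 is an established human line of breast cancer cells that express the oestrogen receptor. Rb occupancy was measured by CUT&RUN, in which a nuclease tethered by an antibody cuts out the DNA around a bound protein for sequencing. Parental cells received 500 nM palbociclib, an inhibitor of CDK4 and CDK6, or DMSO vehicle for 4 days, with 2 Rb libraries for each treatment. RB1 KO cells, which per the study's methods were single-cell clones, gave 1 Rb library for each treatment, and a non-targeting IgG2a antibody gave 1 library of parental cells with palbociclib. Overlapping peaks of the palbociclib replicates were joined and kept where both replicates contributed, on chromosomes 1 to 22 and X. A region was retained as a basal site where it overlapped a region made in the same way from the DMSO replicates. Together the basal sites held all 468 regions made from the DMSO lists, with 2 of them holding 2 each. Membership was therefore chosen on the peak calls of these 4 libraries, and levels in them are given as a description with no test. With 2 libraries against 2, an exact permutation test could not give a p below 0.33 in any case.

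Rb, the product of RB1, binds E2F transcription factors and restrains the genes they drive, many of which encode the machinery of DNA replication. In cycling cells, cyclin D with CDK4 or CDK6 and then cyclin E with CDK2 phosphorylate Rb and release it from E2F. Inhibitors of CDK4 and CDK6 keep Rb hypophosphorylated, the form that holds on to E2F at promoters. E2F sites, such as TTTCCCGC, and CCAAT boxes, which bind the NF-Y factor, are recurrent elements of such promoters.

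The windows shown first were chosen for an E2F motif. Those at PRDM7 and at SYNGR4 and TMEM143 also held a CCAAT box, and those at FAM111B and NASP did not. Shares over all basal sites are given further on. The following 201-bp windows are centred on the palbociclib summit of 4 of the 5 sites that had the highest mean enrichment among those with an E2F motif in a window free of annotated exons. They were read from the plus strand of hg38, and capitals mark the E2F motif. FAM111B encodes a protease and its window is chr11:59106810-59107010. NASP is a histone H3-H4 chaperone (chr1:45584751-45584951). PRDM7 is a histone methyltransferase gene (chr16:90077389-90077589). SYNGR4 and TMEM143 share a divergent promoter (chr19:48364150-48364350).
FAM111B: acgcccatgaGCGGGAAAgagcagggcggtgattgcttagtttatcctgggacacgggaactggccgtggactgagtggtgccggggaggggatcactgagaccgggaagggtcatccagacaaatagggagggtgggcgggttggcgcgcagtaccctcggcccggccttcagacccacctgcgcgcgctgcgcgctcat
NASP: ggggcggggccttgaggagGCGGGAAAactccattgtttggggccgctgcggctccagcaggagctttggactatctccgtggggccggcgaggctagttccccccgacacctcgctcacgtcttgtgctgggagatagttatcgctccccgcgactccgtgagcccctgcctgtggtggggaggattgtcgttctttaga
PRDM7: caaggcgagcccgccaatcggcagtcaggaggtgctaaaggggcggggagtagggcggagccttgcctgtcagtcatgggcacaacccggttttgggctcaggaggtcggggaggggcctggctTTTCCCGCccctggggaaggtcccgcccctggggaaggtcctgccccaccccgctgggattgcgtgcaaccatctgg
SYNGR4 and TMEM143: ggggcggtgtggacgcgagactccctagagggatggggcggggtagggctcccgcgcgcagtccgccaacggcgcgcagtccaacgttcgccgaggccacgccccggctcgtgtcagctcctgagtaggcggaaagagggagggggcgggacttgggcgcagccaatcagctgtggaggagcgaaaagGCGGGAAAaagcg
In 3 of these 4 windows the middle of the motif lay 86 bp before the summit at FAM111B, 77 bp before it at NASP and 92 bp after it at SYNGR4 and TMEM143. At PRDM7 it lay 28 bp after the summit, and at the next 3 sites in that order, SFN, CASP8AP2 and ESYT1, it was 35, 57 and 51 bp from it.

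The 3 strongest basal sites away from protein-coding promoters had no E2F motif in the window and are shown because short strings recurred in their sequence. Their windows were chr16:2905478-2905678, 6353 bp upstream of the FLYWCH1 TSS, chr12:8243199-8243399, near the start of the FAM86FP pseudogene and 15681 bp upstream of FAM90A1, and chr9:137150879-137151079, within GRIN1, which encodes an NMDA receptor subunit. Capitals mark GGCGGG on either strand, a letter string chosen after the sequences were seen.
FLYWCH1 upstream: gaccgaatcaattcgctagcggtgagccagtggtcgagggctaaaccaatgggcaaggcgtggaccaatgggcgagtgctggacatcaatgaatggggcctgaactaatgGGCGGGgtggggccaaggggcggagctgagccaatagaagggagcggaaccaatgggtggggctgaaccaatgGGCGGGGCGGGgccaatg
FAM86FP start: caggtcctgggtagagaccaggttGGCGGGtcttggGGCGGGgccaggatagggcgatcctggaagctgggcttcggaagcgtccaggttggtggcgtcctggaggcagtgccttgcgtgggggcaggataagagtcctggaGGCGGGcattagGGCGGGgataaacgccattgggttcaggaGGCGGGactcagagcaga
GRIN1: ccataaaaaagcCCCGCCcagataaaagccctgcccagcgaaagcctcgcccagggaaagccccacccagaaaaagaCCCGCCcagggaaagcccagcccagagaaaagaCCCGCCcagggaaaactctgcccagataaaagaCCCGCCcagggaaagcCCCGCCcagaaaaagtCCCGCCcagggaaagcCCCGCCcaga
The FLYWCH1 window held 6 CCAAT boxes and 3 copies of GGCGGG, the FAM86FP window 1 and 5, and the GRIN1 window 0 and 7. The median basal site held 1 copy of GGCGGG. In the GRIN1 window, 67.0% of bases were the same as the base 16 bp further on, compared with a median of 37.8% over all basal sites at the best of the offsets of 8 to 60 bp. The best offset gave 50.5% in the FLYWCH1 window and 41.0% in the FAM86FP window. A value of 60% or more was found at 6 basal sites (1.29%) and at 20 of 5520 regions with no DMSO peak (0.362%). The 6 were GRIN1, SGCE (89.1% at 45 bp), CENPX/LRRC45, a site 74709 bp downstream of the FAM53A TSS, CAMSAP1 and WDR45B. Reads from repeated units can be hard to place, and the part of read placement in these values was not tested.

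Rb was higher with palbociclib at nearly every basal site. The level used is the fold enrichment deposited for the strongest peak of a site, which is the fragment pileup at the summit plus 1 over the local background plus 1. Over the 466 sites, the median fold enrichment was 6.99 and 6.81 in the DMSO libraries and 26.6 and 25.9 in the palbociclib libraries. The group means of these medians were 6.90 ± 0.131 with DMSO and 26.2 ± 0.524 with palbociclib (SD, n = 2), and the groups did not overlap. The summit pileup behind them was a median of 17 and 15 fragments in the DMSO libraries, compared with 65 in each palbociclib library, so that levels without the inhibitor rest on few fragments. The median background was 1.64 and 1.14 in the DMSO libraries and 1.45 and 1.56 in the other pair. The ratio of the palbociclib to the DMSO geometric mean had a median of 3.71 over sites, with quartiles of 3.12 and 4.42 and a range of 0.674 to 7.55. Paired by replicate number, the median ratio was 3.76 for replicate 1 and 3.74 for replicate 2.

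**Figure D1:**
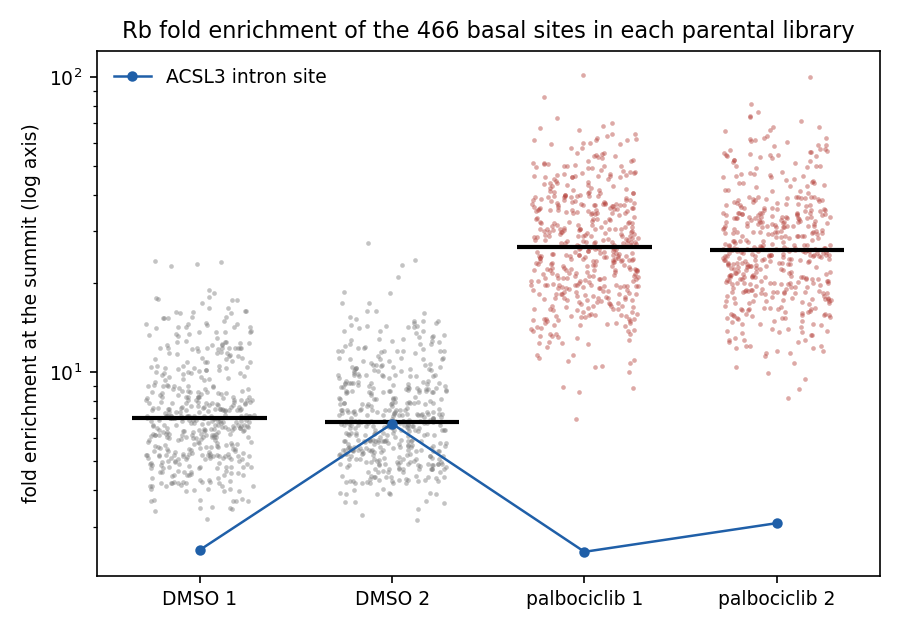
Fold enrichment (log axis) of each of the 466 basal sites in the 4 parental Rb libraries. Points are sites, horizontal bars are medians (6.99, 6.81, 26.6 and 25.9), and the blue line follows the ACSL3 intron site, which did not rise with palbociclib.

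At 465 of the 466 sites both palbociclib values exceeded both DMSO values. The same held at 475 of 476 regions with a peak in all 4 lists (99.8%). These are the 466 basal sites and 10 other regions, so they give no separate comparison. The count is a description and is not read as particular to the basal sites. The ratio was below 2 at 6 sites, from 2 to 3 at 82, from 3 to 5 at 326 and 5 or more at 52. Replicates differed by a median of 1.22-fold with DMSO and 1.13-fold with palbociclib, both less than the difference between treatments. They were more than 2-fold apart at 17 sites with DMSO and at 3 with palbociclib. Across the 466 sites, Spearman's rho was 0.619 between the DMSO replicates, 0.894 between the palbociclib replicates and 0.763 between the means of the treatments. These values describe sites that share the same 4 libraries.

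Peaks were also wider with palbociclib. The median peak width was 338.5 and 294.5 bp in the DMSO libraries and 950 and 945.5 bp in the palbociclib libraries. Peaks were wider in both palbociclib lists than in both DMSO lists at 465 of 466 sites, with a median width ratio of 2.75. No such count was taken for other regions, so it is not read as particular to the basal sites. A taller peak crosses the calling threshold over a longer stretch, so width and height are not separate measurements. Summits stayed close to each other. They were a median of 40.5 bp apart between DMSO and palbociclib, compared with 57.5 bp between the DMSO replicates and 36 bp between the palbociclib replicates. In all, 265 sites (56.9%) had their DMSO and palbociclib summits within 50 bp of each other and 27 had them more than 250 bp apart.

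Basal sites made up most of the strongest Rb regions with palbociclib. Ranked by palbociclib fold enrichment, 94 of the top 100 of all 6644 regions and 319 of the top 466 (68.5%) were basal sites. In the highest decile of regions, 363 of 665 (54.6%) were basal sites, 188 had a DMSO peak without being a DMSO region, and 114 had no DMSO peak. In the next decile basal sites made up 11.7%, and in the lowest 6 deciles together there were 2. The median palbociclib fold enrichment was 26.1 at basal sites, 15.1 at the 658 regions with a DMSO peak but no joint DMSO region, and 7.12 at the 5520 regions with no DMSO peak. Background at the summit was alike, with medians of 1.40, 1.35 and 1.51. No peak with fewer than 6 fragments was called in either DMSO list, so a region with a low palbociclib level could not have been called with DMSO at the median ratio. This order follows in part from the rule, and it is a description.

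**Figure D2:**
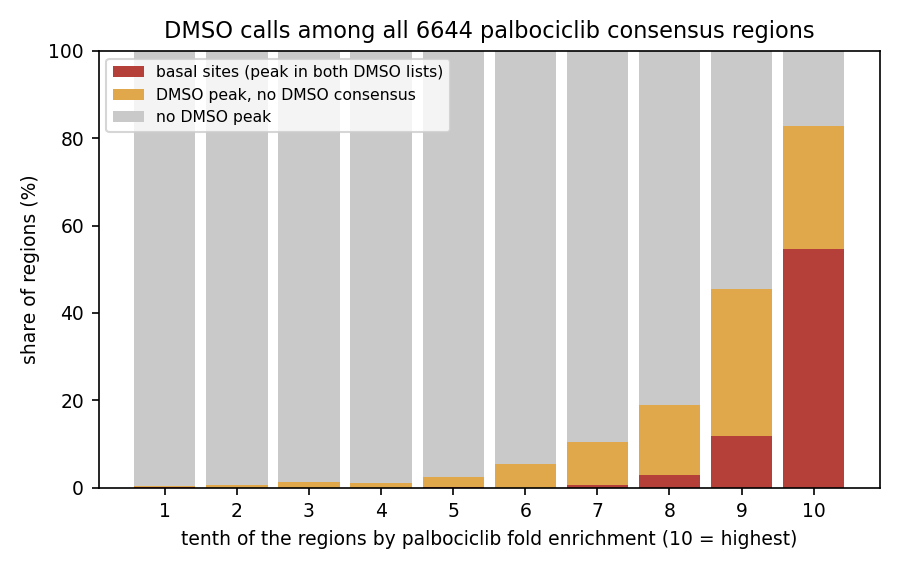
Share of regions in each decile of palbociclib fold enrichment (10 is the highest) that were basal sites (red), had a DMSO peak but no joint DMSO region (yellow) or had no DMSO peak (grey). Basal sites made up 54.6% of decile 10 and 11.7% of decile 9.

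The strongest regions outside the set were close to it. A region named for RYR1, which encodes a muscle calcium channel, lay at chr19:38506955-38507515, and the name does not place it at the promoter. It had palbociclib values of 50.3 and 48.4 and a DMSO peak of 6.40 in replicate 2 only. CDC7, a kinase that activates replication origins, had 46.8 and 45.2 and a DMSO peak of 6.99 in replicate 1 only. At the edge of the rule, the basal sites with the lowest DMSO −log10 q were MXD3 (1.33 in replicate 2 and 18.3 in replicate 1), PSENEN/U2AF1L4 (1.36 and 3.70) and GGN/SPRED3 (1.39 and 7.39). The regions just outside with the highest −log10 q in a single DMSO list were XRCC5 (16.8), the divergent ATM/NPAT promoter (15.3) and SCML1 (14.7). These regions outside the set had a higher −log10 q in a single DMSO list than MXD3, PSENEN/U2AF1L4 and GGN/SPRED3 had in their weaker list. In its stronger list MXD3 (18.3) was above each of these regions.

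Most basal sites sat at the start of protein-coding genes. A site was assigned to a promoter where it overlapped the stretch from 2000 bp upstream to 500 bp downstream of a protein-coding TSS in GENCODE 44, which covers 2.90% of these chromosomes. By that definition 435 of 466 sites (93.3%, 95% exact binomial interval 90.7 to 95.4%) were promoter sites, compared with 90.3% (87.7 to 92.4%) of regions with a DMSO peak but no joint DMSO region and 88.9% (88.0 to 89.7%) of regions with no DMSO peak. Intervals cover counting error only, and regions are not replicates. Basal sites had median palbociclib peak widths of 950 and 945.5 bp, against 483 and 464 bp in regions with no DMSO peak. A wider region has more room to touch a promoter window. The summit was within 250 bp of a coding TSS at 369 basal sites (79.2%), compared with 76.4% and 75.7% in the other classes. At basal promoter sites the summit lay at a median of 36 bp upstream of the TSS. The sites marked 546 genes, since 113 of them served the promoters of 2 or more genes. Divergent promoters, with head-to-head TSSs at most 1000 bp apart, made up 97 basal sites (20.8%, 17.2 to 24.8%), compared with 16.7% (13.9 to 19.8%) and 11.7% (10.9 to 12.6%) in the other classes. Of the 31 sites outside protein-coding promoters, 17 overlapped the promoter window of a non-coding gene or pseudogene, and 9 overlapped no annotated promoter window at all.

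The highest enrichment was found at a stretch upstream of FLYWCH1 (chr16:2904274-2906124), which overlaps the promoter window of the lncRNA ENSG00000289222. Its fold enrichment was 23.89 and 24.03 with DMSO and 102 and 100 with palbociclib, a ratio of 4.21, and it ranked first of all 6644 regions with palbociclib. The site near the FAM86FP start (chr12:8242477-8244069) had 17.6 and 17.1 with DMSO and 85.3 and 81.1 with palbociclib. FAM86FP belongs to a family of near-identical copies, between which reads may be split, and 3 of the 11 regions at FAM86 genes or pseudogenes were basal sites. The GRIN1 site (chr9:137150197-137151443), in an exon, had 16.5 and 14.7 with DMSO and 54.3 and 54.3 with palbociclib. These 3 non-promoter sites thus matched the strongest promoters in level. The other non-promoter sites among the strongest 8 lay near MORN3, CCM2L, FAM53A, LRRC23 and TMEM18, with palbociclib values between 35.6 and 56.3.

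CDC6 and MCM5, which act at replication origins, had the highest geometric means over the 4 libraries of all promoter sites. At CDC6 (chr17:40287420-40288545), which loads the MCM helicase onto origins, fold enrichment was 22.9 and 23.1 with DMSO and 66.1 and 75.8 with palbociclib. At MCM5 (chr22:35399691-35400533), a subunit of that helicase, it was 19.0 and 27.5 with DMSO, against 52.4 and 58.2 with palbociclib. The DMSO values of these promoters were among the highest of any site, and their ratios of 3.08 and 2.42 were below the median. FAM111B followed with 17.8 and 15.0 against 68.5 and 63.3, and SIVA1, a regulator of apoptosis, with 16.1 and 16.1 against 61.7 and 62.3. At CCNE2/NDUFAF6, the promoter of cyclin E2, the DMSO replicates differed (23.3 and 14.1), and both were below the palbociclib values of 51.8 and 57.0. ASF1B, a histone chaperone, had 15.3 and 11.9 against 67.3 and 71.0. RAB33B, a small GTPase gene, had 12.6 and 16.1 against 61.3 and 67.8, and OGG1, which removes oxidized guanine from DNA, had 17.8 and 12.7 against 59.7 and 61.7. With palbociclib alone, FAM111B, SIVA1, ASF1B, RAB33B and OGG1 were thus above MCM5 in both libraries. At each of these promoters both palbociclib values exceeded both DMSO values.

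Cell cycle genes were frequent among the promoters marked. Lists of genes by role were written from general knowledge with earlier results of these data known, and are compared here by counts only. Of 305 genes on the 6 cell cycle lists, 70 (22.95%) had a basal site at the promoter, compared with 546 of 19618 protein-coding genes (2.78%). These 70 genes were served by 69 sites, or 14.8% of all basal sites. A further 43 genes had only a region with a DMSO peak but no joint DMSO region, 148 had only a region with no DMSO peak and 44 had no palbociclib region. Most promoters of cell cycle genes with Rb in palbociclib-treated cells thus had no joint DMSO call.

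DNA replication was the list with the largest share, at 19 of 62 genes (30.6%). Besides CDC6 and MCM5 it held PRIM1 (18.1 and 11.3 with DMSO, 50.4 and 54.1 with palbociclib), which makes the RNA primer, and MCM7 (14.2 and 18.7, then 37.2 and 35.5). TIMELESS, a replication fork protection factor, had 16.6 and 14.3 with DMSO and 34.6 and 38.2 with palbociclib. CLSPN, which carries the signal of a stalled fork to CHK1, differed between replicates under both treatments (17.5 and 8.51, then 61.1 and 29.9). LIG1, the ligase that joins Okazaki fragments, had 8.68 and 10.6 with DMSO and 50.8 and 56.8 with palbociclib, and its ratio of 5.61 was among the 52 of 5 or more. PCNA, the sliding clamp, had a site at each of 2 alternative promoters, at 8.99 and 7.82 with DMSO and 39.5 and 37.5 with palbociclib for the stronger one. The remaining genes were FEN1, GINS2, GMNN, MCM3, MCM4, ORC2, POLD2, RPA1, RPA2, RPA3 and WDHD1. Only ORC5 of the 62 had no palbociclib region at all. The RPA genes encode all 3 subunits of the single-strand binding complex, and each had a basal site.

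The list of the Rb-E2F pathway and G1/S control had a basal site at 8 of 44 genes (18.2%). They were CCNE2, E2F1, DTL, RBL1, FBXO5, CDKN2C, E2F7 and CDC25A. At E2F1, the founding activator of the E2F family, fold enrichment was 13.7 and 17.2 with DMSO and 57.7 and 52.4 with palbociclib, and the window held 2 E2F motifs. RBL1 encodes p107, a relative of Rb. Its site had 15.4 and 13.8 with DMSO and 39.9 and 46.0 with palbociclib, and held 5 E2F motifs over its whole length. FBXO5, an inhibitor of the anaphase-promoting complex, had 12.1 and 5.29 with DMSO and 59.4 and 55.6 with palbociclib. Its ratio of 7.18 was the second highest of all sites, although its DMSO replicates were more than 2-fold apart. At DTL, an adaptor for ubiquitin ligation during S phase, the values were 13.7 and 12.7, then 49.4 and 74.1. CDKN2C, E2F7 and CDC25A were weaker, with DMSO values between 3.96 and 7.097.

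Chromatin and histone supply had 11 of 37 genes (29.7%). After ASF1B the strongest were H2AZ2 (15.9 and 15.9 with DMSO, 49.95 and 47.11 with palbociclib), a histone variant, and EZH2 (13.5 and 10.1, then 41.7 and 43.6), the Polycomb methyltransferase. DNMT1, the maintenance DNA methyltransferase, had 15.9 and 9.34, then 37.2 and 33.4. SLBP, which binds histone mRNA, shared a site with TACC3, and NASP, HMGB2 and CASP8AP2 followed. CBX5, LMNB1 and CDCA7L were the remaining 3. DNA repair and checkpoint had 14 of 57 genes (24.6%), led by FANCG (23.6 and 14.3 with DMSO, 50.1 and 37.6 with palbociclib), a Fanconi anaemia core factor. BRIP1, UNG, PARP1, FANCC, RAD51AP1, RMI2 and FANCM came next, and XRCC3, EXO1, RAD1, CHEK2, RMI1 and FANCI had lower means. The sites of these lists did not share 1 ratio. It ranged from 2.22 at CDCA7L to 6.20 at XRCC3.

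Mitosis and centromere genes had a basal site at 16 of 93 promoters (17.2%), and 20 of the 93 (21.5%) had no palbociclib region, compared with 66.0% of all protein-coding genes. The difference between lists was not tested. The strongest were CENPM (15.4 and 14.7 with DMSO, 53.1 and 60.3 with palbociclib) and CENPX (10.2 and 7.30, then 59.7 and 54.1), both of which encode proteins that act at centromeres. NCAPH2, TACC3, STAG1, MIS12, SMC3 and NSL1 followed, then KIF22, CENPH, the divergent NUSAP1/OIP5 pair, SMC4, SMC1A, CENPU and BUB3. The 20 genes with no region included AURKB, BUB1, CDC20, PLK1, TPX2 and TTK. Deoxynucleotide synthesis had 2 of 12 genes, RRM2 and TYMS. The oestrogen response and luminal list had 1 of 41 (2.44%), MYC, and the AP-1 and ATF factors had 1 of 18 (5.56%), ATF2 (12.1 and 13.2 with DMSO, 45.7 and 58.7 with palbociclib). The oestrogen share was close to the 2.78% of all protein-coding genes. TFF1, GREB1, PGR and ESR1 were among the 26 of 41 genes (63.4%) with no palbociclib region at the promoter, a share near the 66.0% of all protein-coding genes.

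The smallest and largest ratios fell at unlike genes. The 4 sites above ACSL3 in order were ZNF451 (4.60 and 5.61 with DMSO, 6.93 and 8.19 with palbociclib, ratio 1.48), ANAPC13/CEP63 (ratio 1.495), IPO7 (1.58) and RRM2 (1.62). RRM2, the small subunit of ribonucleotide reductase, had 7.85 and 9.75 with DMSO and 13.2 and 15.2 with palbociclib, so its DMSO level was above the median site and its palbociclib level was well below. The largest ratios were at MTMR4, a lipid phosphatase gene (4.58 and 4.62 with DMSO, 36.3 and 33.3 with palbociclib, ratio 7.55), FBXO5, the site near FAM53A (6.76), CENPX/LRRC45 (6.58) and CARD19 (6.41). Sites with a cell cycle list gene had a median ratio of 3.51 and the other 397 sites 3.75. Their DMSO medians were 8.17 and 7.47, against 6.84 and 6.74 at the other sites, and their palbociclib medians 32.4 and 29.4, against 26.1 and 25.3. Cell cycle promoters were thus higher in each of the 4 libraries, while the ratio differed little.

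**Figure D3:**
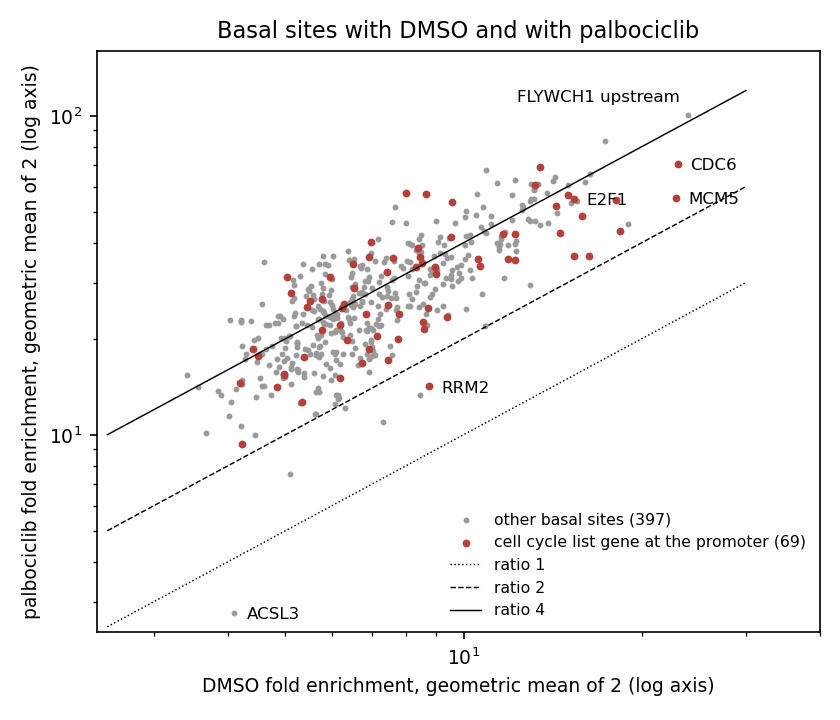
Geometric mean fold enrichment of each basal site with DMSO (x, log axis) and with palbociclib (y, log axis), each over 2 libraries. Red points are the 69 sites at promoters of cell cycle list genes, grey points the other 397, and lines mark ratios of 1, 2 and 4. ACSL3 lies below the line of equality and RRM2 is below the line for a ratio of 2.

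E2F motifs were more frequent at basal sites than at the other classes. No test was run, since regions are not replicates. The motif, searched on both strands as TTTCCCGC, TTTGGCGC, TTTCGCGC or TTTGCCGC within 100 bp of the summit, occurred in 63 of 466 windows (13.5%, 95% exact binomial interval 10.6 to 17.0%). It occurred in 8.21% (6.22 to 10.6%) of regions with a DMSO peak but no joint DMSO region, in 4.801% (4.25 to 5.40%) of regions with no DMSO peak and in 2.82% of 19970 windows of the same length centred on coding TSSs. The 7-letter core, which is the same strings without their first T and is contained in the longer motif, occurred in 39.1% (34.6 to 43.6%), 28.3%, 22.2% and 12.3%. Within the core 1 form stood out. TTCCCGC occurred in 135 basal windows (29.0%, 24.9 to 33.3%), compared with 12.0% (11.2 to 12.9%) of regions with no DMSO peak and 5.74% of TSS windows. The form TTGGCGC occurred in 6.22% of basal windows and 4.62% of regions with no DMSO peak. For TTCGCGC these shares were 3.86% and 3.88%, and for TTGCCGC they were 4.08% and 3.77%. The string CGGGAAAA, found by a search of short strings after the data were seen, occurred in 7.08% of basal windows, 1.67% and 0.996% of the other classes, and 0.766% of TSS windows. On the other strand it reads TTTTCCCG, which overlaps the E2F form TTTCCCGC, so its shares are not separate from those of that motif.

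CCAAT boxes showed a different pattern. They occurred in 179 basal windows (38.4%, 34.0 to 43.0%), in 29.3% and 24.2% of the other classes and in 25.2% of TSS windows. Motif shares can follow the strength of a region, so they were also compared within the highest decile of palbociclib fold enrichment. Of the top 100 regions 94 were basal sites, so strength was not matched between the groups within that decile. There, the E2F motif occurred in 14.05% (10.6 to 18.1%) of 363 basal sites and in 5.96% (3.57 to 9.26%) of the 302 other regions, and the core in 39.4% and 27.8%. In the 114 of these other regions that had no DMSO peak, the E2F motif share was 7.89% (3.67 to 14.5%), an interval that overlapped that of the basal sites. CCAAT boxes occurred in 41.9% (36.7 to 47.1%) of the basal sites, 38.1% (32.6 to 43.8%) of the other regions and 45.6% (36.3 to 55.2%) of the 114, intervals that overlapped. Both elements, a core and a CCAAT box, occurred in 74 basal windows (15.9%) and in 5.72% of regions with no DMSO peak. The CHR element of late cell cycle promoters (TTCGAA or TTTGAA) occurred in 6.22% of basal windows, 4.26% and 4.15% of the other classes and 6.77% of TSS windows. GGGCGG, the box bound by SP and KLF factors, occurred in 71.7% of basal windows, 68.5% and 70.7% of the other classes and 53.7% of TSS windows. Motifs of ETS factors (CCGGAAGT), NRF1 (CGCATGCG), the cAMP response element (TGACGTCA), the E-box (CACGTG), YY1 (AAGATGGC) and AP-1 (TGACTCA or TGAGTCA) each occurred in under 5% of basal windows, at 3.004%, 1.502%, 0.429%, 4.29%, 1.72% and 0.858%. In the same order the shares were 3.22%, 2.21%, 1.25%, 5.89%, 2.26% and 1.32% in regions with no DMSO peak and 5.09%, 1.93%, 2.03%, 5.67%, 3.77% and 2.12% in TSS windows, so that each was lower at basal sites than in either, on counts of 2 to 20 basal windows. No basal window held the full palindrome of the oestrogen response element, which allows a share of up to 0.788% by the exact interval. It occurred in no window of the other classes and in 8 of 19970 TSS windows. A match is a string of letters and not a measured binding site, and 36.3% of basal windows held no E2F core, CCAAT box or CHR element.

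**Figure D4:**
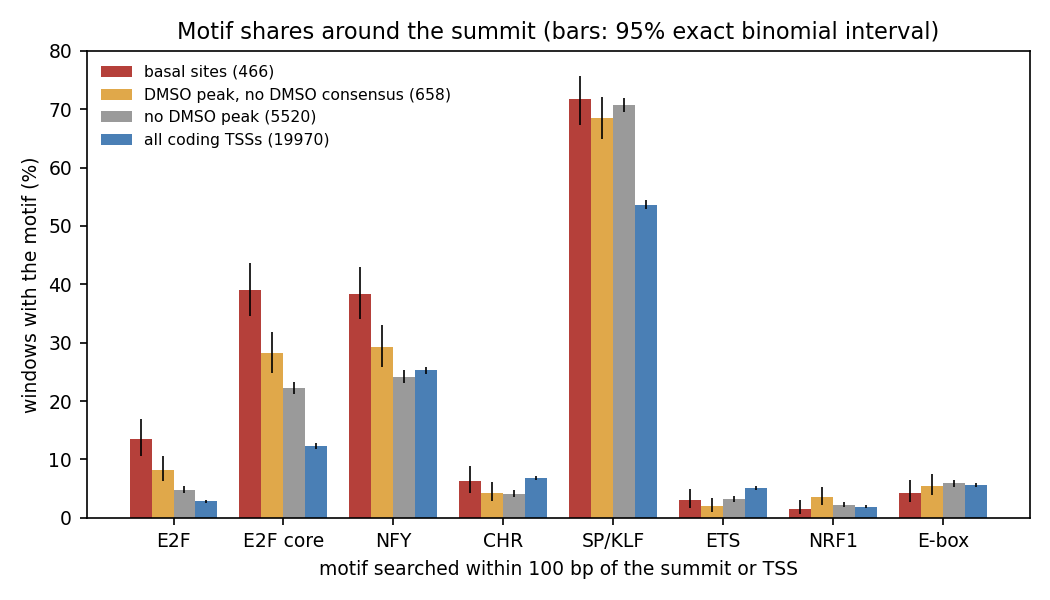
Share of 201-bp windows that hold each motif, for basal sites (red), regions with a DMSO peak but no joint DMSO region (yellow), regions with no DMSO peak (grey) and windows centred on coding TSSs (blue). Error bars are 95% exact binomial intervals. The E2F motif falls from 13.5% to 2.82% across the 4 groups, while the SP/KLF box is alike in the 3 groups of Rb regions.

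The position of the motifs differed as well. Around the palbociclib summit, the E2F core was found in 8.80% and 9.44% of basal sites in the 2 bins of 50 bp next to the summit, and in 14.8% and 15.7% in the bins centred 125 bp before and 75 bp after it. To check this in each library, the density of the core was taken around that library's own summit. Per kb, it was 1.85 and 1.85 within 50 bp of the DMSO summits and 1.70 and 1.95 within 50 bp of the palbociclib summits. From 50 to 150 bp away it was 2.79 and 2.85 for DMSO and 2.96 and 2.88 for palbociclib. The outer density was thus 1.47 to 1.74 times the inner one in all 4 libraries, compared with 0.992 and 1.06 in regions with no DMSO peak. CCAAT boxes had the opposite profile, with an outer density of 0.736 to 0.879 times the inner one at basal sites and 0.842 and 0.846 in regions with no DMSO peak. The contrast between the motifs was seen at each library's own summits, although the libraries share the same sites. The bands were chosen after the profile was seen. In regions with a DMSO peak but no joint DMSO region, the 2 bins next to the palbociclib summit had the E2F core in 7.75% and 7.60%. Bins centred 125 and 75 bp before the summit had it in 10.5% and 9.27%, and those 75 and 125 bp after in 7.75% and 9.42%. Densities by library were not taken for that class. The classes were not matched for strength, so the profile is not read as particular to the basal sites.

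**Figure D5:**
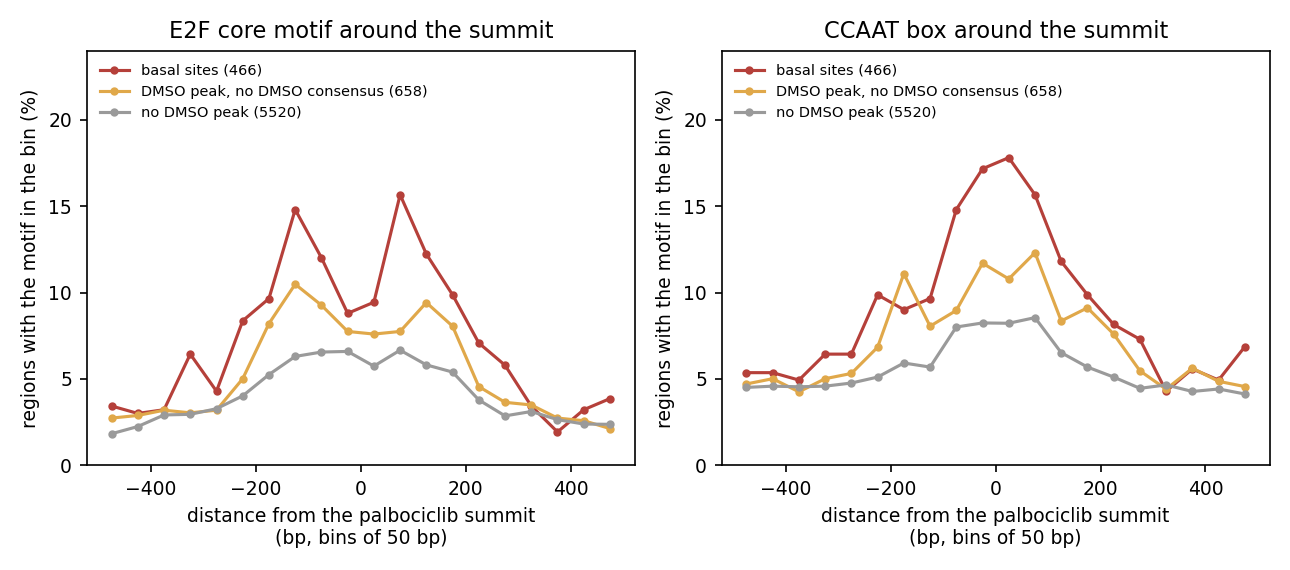
Share of regions with an E2F core (left) or a CCAAT box (right) in each 50-bp bin around the palbociclib summit, for basal sites (red), regions with a DMSO peak but no joint DMSO region (yellow) and regions with no DMSO peak (grey). At basal sites the E2F core dips at the summit and reaches 14.8% and 15.7% on either side, whereas the CCAAT box is highest at the summit.

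Sites with an E2F motif in the window had a median ratio of 3.49 and those without one 3.74. Their fold enrichment was a median of 7.45 and 7.22 in the DMSO libraries and 29.5 and 26.9 in the palbociclib libraries, against 6.91, 6.79, 26.1 and 25.7 at sites without the motif. Over their whole length, 175 sites (37.6%) held an E2F motif. The 43 sites with 2 or more had medians of 8.04 and 7.36 in the DMSO libraries and 34.8 and 33.4 in the palbociclib libraries, against 6.91, 6.77, 25.9 and 25.5 at the other 423. Levels were thus higher with the motif in each library, by less than the interquartile range of sites, and longer regions have more room for motifs. Sites with a CCAAT box had a ratio of 3.90 and those without 3.62. Of the 69 sites at cell cycle list genes, 34 (49.3%) held an E2F core in the window, compared with 148 of the other 397 (37.3%).

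Basal sites were spread unevenly over chromosomes. Chromosome 13 held 1 (NUP58, a nuclear pore gene), compared with 19 of 658 and 100 of 5520 regions of the other classes. Chromosome X held 3 (0.644%), compared with 2.28% and 2.97%, and chromosome 17 held 43 (9.23%), compared with 6.69% and 6.09%. The median background of all palbociclib regions was 1.51 on chromosome 13, 1.00 on X and 1.74 on chromosome 17, against 1.51 over all regions. On chromosome 18 it was 1.94, with 1.93% of basal sites and 1.87% of regions with no DMSO peak. Chromosomes 13, 17 and X were chosen after the shares were seen, and the part of background in them was not tested.

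Few basal sites overlapped a peak of the control libraries. The RB1 KO lists held 4 and 5 peaks on these chromosomes and the IgG2a list 1724, so that few sites could overlap an RB1 KO peak. Such a peak overlapped 1 of 466 (0.215%), compared with 2 of all 6644 regions (0.0301%), and an IgG2a peak overlapped 10 (2.15%, 1.03 to 3.91%), compared with 1.34% of all regions. The 3 strongest of the 10 were MAP3K3, a PPP1CA/CARNS1 exon and SRSF1, with palbociclib fold enrichments between 20.1 and 27.5 and IgG2a fold enrichments of 4.13, 3.38 and 6.47. If the IgG2a library was the control used to call the Rb peaks, overlap with it is reduced by construction. The site called in RB1 KO cells was the ACSL3 intron (chr2:222866303-222866757), which was also the exception in the comparison of treatments. Its Rb fold enrichment was 2.504 and 6.702 with DMSO and 2.47 and 3.09 with palbociclib, 2.73 and 2.94 in RB1 KO cells with DMSO and palbociclib, and 15.5 with IgG2a. Here the IgG2a value exceeded every Rb value, and the data do not bear out the label of an Rb-bound site.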

How the data were processed

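Rb CUT&RUN peak lists of 7 libraries were used, grouped by the sample titles. Per the study's methods, the authors aligned reads to hg38 with Bowtie2 2.3.4.1 and called peaks in each library with MACS2 2.2.7.1 against an IgG control at a q-value cutoff of 0.05. The deposited lists give for each peak the fold enrichment at the summit, the −log10 p, the −log10 q and a display score, which was not used. The lists hold no read totals. The pileup of fragments and the background at each summit were recovered from the deposited fold and −log10 p, with a largest misfit of 0.000656. The lowest background of a list, which scales with depth, was between 0.465 and 0.571 in the parental Rb lists. These lists held 922 and 753 peaks with DMSO and 8314 and 8171 with palbociclib on chromosomes 1 to 22 and X. All peaks fitted the chromosome lengths of the reference.

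Regions, overlaps, motifs and intervals were computed with Python 3.11.15, pandas 2.3.3, scipy 1.17.1 and pysam 0.24.0. Peaks were shared from 1 bp of overlap. Steps were tested on simulated data. Members and gene lists were chosen with earlier results of these data known. Named sites were the 10 with the highest geometric mean over the 4 libraries, the 5 largest and 5 smallest ratios, those at promoters of listed genes (values for at most 8 per list), the 8 strongest outside promoters, those with an RB1 KO peak, the 3 strongest with an IgG2a peak, and 3 to each side of the threshold. RYR1, CDC7, NUP58, SGCE, CAMSAP1 and WDR45B were named after their values were seen. Of the 5 E2F windows with the highest means, 1 is not reported here. Alternatives were stricter peak thresholds and overlaps, lists of equal length, other measures, promoter and motif definitions, and each library left out. The 2 palbociclib and 2 DMSO replicates were biological replicates of an experiment performed once, per the study's methods.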

Additional observations from a re-analysis of the deposited data

Results flagged for a closer look

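The ACSL3 intron site was the only basal site with a peak in RB1 KO cells, which were not part of the comparison of treatments. Its fold enrichment there was 2.73 with DMSO and 2.94 with palbociclib, with 1 library each and no test. The same stretch reached 15.5 in the IgG2a library.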

How the results depend on the processing

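The number of basal sites depended on the calls required. It was 115 with 50% reciprocal overlap, 271 at −log10 q of at least 5, 338 at a fold enrichment of at least 5 and 354 with lists of 753 peaks each, all of them among the 466. Leaving out 1 library gave 466 to 884 sites. The highest counts came without DMSO replicate 2 (884) and without DMSO replicate 1 (716), where the remaining list alone defines DMSO binding. The 70 cell cycle genes became 23 with 50% reciprocal overlap, 47 at −log10 q of at least 5 and 55 at a fold enrichment of at least 5. Lists of equal length gave 51, and leaving a library out gave 70 to 92. The median ratio of 3.71 was 3.58 with 50% reciprocal overlap, 3.76 at −log10 q of at least 5, 3.67 at a fold enrichment of at least 5, 3.95 with lists of equal length, 3.81 for the pileup over the background floor and 3.93 for the pileup alone. With a library left out it was 3.34 to 3.81, and with the 466 sites kept it was 3.76 and 3.73 without DMSO replicates 1 and 2 and 3.69 and 3.81 without palbociclib replicates 1 and 2. The 4 pairings of 1 palbociclib with 1 DMSO library gave 3.70 to 3.76. The promoter share was 98.1% with the TSSs of all genes and stayed within the interval of the main value otherwise. The E2F motif share was 4.51% within 50 bp, 30.04% within 250 bp and 39.1% for the 7-letter core, compared with 2.12%, 10.9% and 22.2% in regions with no DMSO peak. No paired analysis was run, since no model was fitted to which a replicate block could be added. The sample titles do not say whether libraries of equal replicate number are pairs. The ratios taken by replicate number, 3.76 and 3.74, are descriptions. DMSO pileups at the sites were 7 to 66 and 6 to 58 fragments, and the part of depth in which regions were called was not tested.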
